A study of Equus caballus with 2 samples.

Results

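The constitutive proteasome genes were described in cultured equine endometrial fibroblasts with and without TGF-β1. Members were all genes whose symbol began with *PSM*, a letter from A to G and a digit, leaving out the 5 interferon-inducible genes *PSMB8*, *PSMB9*, *PSMB10*, *PSME1* and *PSME2*. Of 21426 genes in both count tables, 47 symbols matched and 42 were members after the 5 exceptions. The rule used names only and no measured value. All 42 members had UMIs (unique molecular identifiers, each standing for 1 captured transcript) in both libraries, and 40 had a mean of at least 10 CPM (UMIs per 1000000 UMIs of a library) over both libraries. The remaining 2 were *PSMB11* and *PSMC3IP*. No gene was listed under the symbols *PSMG2*, *PSMG4* or *PSME3*, which therefore have no value here.

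The proteasome is the main protease of the cytosol and nucleus and degrades proteins that carry ubiquitin chains. Its 20S core is a barrel of stacked rings, in which the outer alpha rings gate the entrance and the inner beta rings hold the proteolytic sites. A 19S regulatory particle docks on the core, binds and removes the ubiquitin chains, and unfolds the substrate with a ring of ATPases. Dedicated chaperones assemble both particles, and under interferon the catalytic beta subunits are replaced by inducible counterparts that form the immunoproteasome. In fibroblasts, the constitutive subunits are housekeeping genes.

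Both groups consisted of endometrial fibroblasts isolated from 4 mares, expanded in culture and seeded on hydrogels coated with collagen. For the last 24 h the medium of both groups held 0.1% BSA (bovine serum albumin), and the TGF-β1 group also received 10 ng/ml human recombinant TGF-β1, a growth factor that drives matrix production. The cells of the 4 mares were pooled into 1 droplet library per group, so that there was 1 control and 1 TGF-β1 library. Cells were not assigned to mares here. No test was therefore made, and the condition cannot be told apart from the preparation of its library. Intervals below are exact binomial (Clopper-Pearson) 95% intervals, which cover counting error only and do not hold the spread between mares or cultures.

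Cells were kept at 20000 or more UMIs, 3500 or more genes and less than 4% mitochondrial UMIs. This left 3865 control cells (median 50313 UMIs) and 4513 TGF-β1 cells (median 43142 UMIs). The libraries shared 6 cell barcodes, of which 2 passed the filters in both. All 8 fibroblast markers were found and summed to 21499 CPM in the control and 21707 CPM in the TGF-β1 library. This sum held opposed differences, with *VIM* at 4399 and 2240 CPM, *PDGFRA* at 50.5 and 16.7 CPM and *COL3A1* at 4456 and 5583 CPM. The 4 immune markers summed to 56.6 and 52.9 CPM, nearly all of it from *CD68* (42.6 and 43.1 CPM) and *CD14* (13.99 and 9.75 CPM), while *PTPRC*, which marks all leukocytes, had 1 UMI in the control and 0 in the TGF-β1 library. The 4 endothelial markers summed to 0.784 and 0.410 CPM. The 6 epithelial markers found summed to 134.4 CPM in the control and 12.3 CPM in the TGF-β1 library. This difference came mainly from *KRT8* (114.3 and 4.48 CPM), while the defining epithelial genes *EPCAM* and *CDH1* had at most 6 UMIs in either library. The part of *KRT8*-positive cells in the proteasome values was not tested beyond the values by cluster given further on.

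Constitutive proteasome transcripts made up a slightly larger share of the transcripts in the TGF-β1 library than in the control. Summed over all 42 members, the level was 5465 CPM in the control and 5795 CPM in the TGF-β1 library (log2 ratio 0.08, 95% interval 0.08 to 0.09), or 1.06-fold. Without *PSMA7* and *PSMD7* the log2 ratio of the sum was 0.0241, and it was 0.0452 when mitochondrial and ribosomal protein genes were left out of the total. The share of UMIs on members in the median cell was 0.549% in the control, with quartiles of 0.492% and 0.602%. In the TGF-β1 library it was 0.579%, with quartiles of 0.520% and 0.643%. The middle ranges of the cells thus overlapped for most of their width. Because TGF-β1 cells held fewer UMIs, the number of member UMIs per cell was 297.6 in the control and 282.1 in the TGF-β1 library, so that the order depended on scaling to the total.

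Of the 40 members at or above 10 CPM, 29 were higher and 11 lower in the TGF-β1 library, and 23 had an interval entirely above 0, 11 entirely below 0 and 6 holding 0. Among all 7658 genes at or above this minimum, 51.4% were higher in the TGF-β1 library and 44.5% had an interval entirely above 0. The shares of all genes with an interval entirely below 0 or holding 0 were not counted. Only 2 members, *PSMA7* and *PSMD7*, were higher by a log2 ratio of more than 0.32 (25% higher), against 15.7% of all genes. None of the 40 was lower by more than 0.32, against 15.1% of all genes, and none passed 2-fold in either direction, against 4.43% of all genes. The median log2 ratio of the 40 members was 0.06 and that of all 7658 genes 0.0082. The median size of the log2 ratio without its sign was 0.13 for the members and 0.20 for all genes. By these counts members were higher more often than genes at large and lay closer to no difference. When mitochondrial and ribosomal protein genes were left out of the total, 24 of the 40 members were higher and 16 lower, and 45.4% of all genes were higher. With that total the median log2 ratio of the members was 0.0251.

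**Figure D1:**
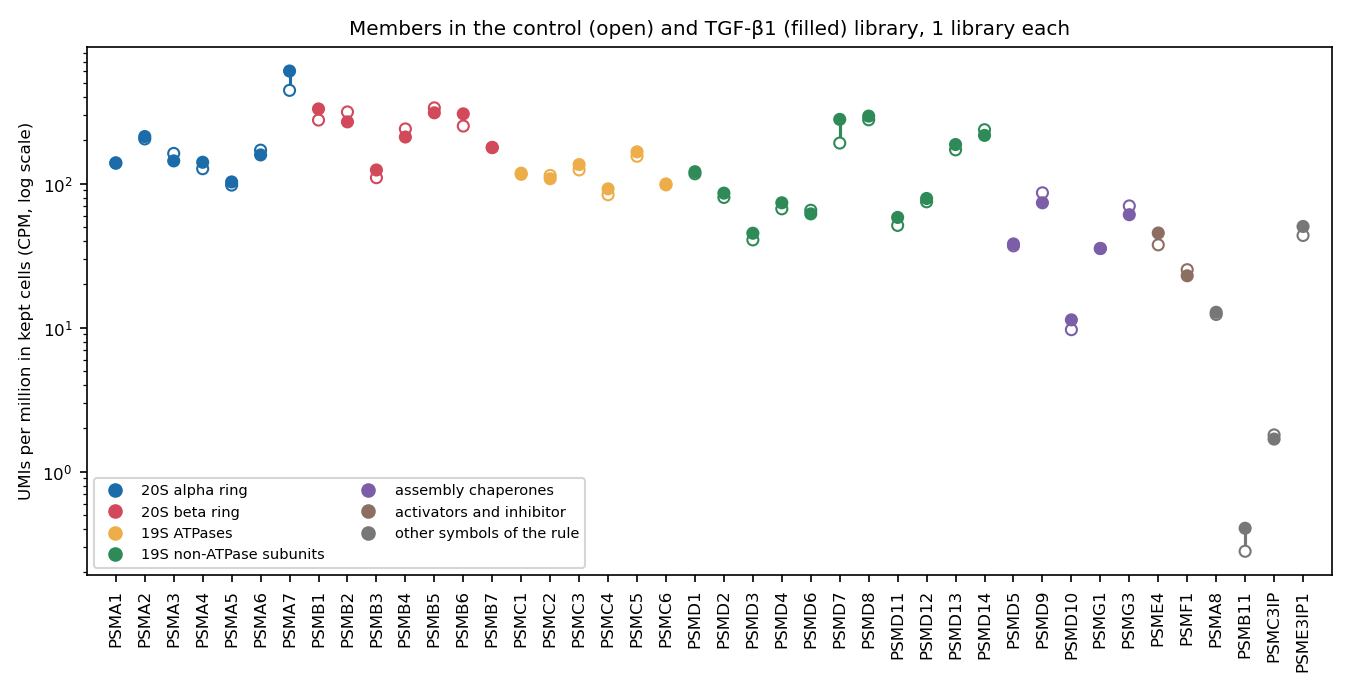
Level of each of the 42 members in CPM (log scale) in the control library (open circles) and the TGF-β1 library (filled circles), coloured by subcomplex, with 1 library per group. Most pairs of circles overlap, and the widest gaps among abundant members belong to *PSMA7* (443.4 and 604 CPM) and *PSMD7* (190.9 and 278.9 CPM).

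The plot of levels places every member on 1 axis so that the control and TGF-β1 value of a gene can be read together. Its vertical positions are not an order of abundance, since capture at the 3′ end differs from gene to gene, and each gene was compared only with itself.

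The alpha ring had the largest summed ratio of the 4 subcomplexes of the core and the 19S particle, and this rested on 1 subunit. The 7 alpha genes summed to 1342 CPM in the control and 1500 CPM in the TGF-β1 library (log2 ratio 0.16, interval 0.15 to 0.17). *PSMA7*, the alpha subunit that *PSMA8* replaces in the testis, had 93345 UMIs or 443.4 CPM in the control and 132716 UMIs or 604 CPM in the TGF-β1 library (log2 ratio 0.45, interval 0.43 to 0.46). It was detected in nearly every cell, in 99.97% of control cells and in 100% of cells with TGF-β1, after each cell was thinned to 20000 UMIs. Without *PSMA7* the other 6 alpha genes summed to 898.9 and 896 CPM (log2 ratio -0.0048, interval -0.014 to 0.0043). The ring as a whole was therefore higher only through *PSMA7*.

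The other alpha genes lay on both sides of 0. *PSMA3* had the lowest ratio, with 161.8 CPM in the control and 143.6 CPM in the TGF-β1 library (log2 ratio -0.17, interval -0.19 to -0.15). *PSMA6* was also lower, at 170.5 and 158 CPM (log2 ratio -0.11). *PSMA4*, which was higher, had 126.7 and 140.5 CPM (0.15), followed by *PSMA5* with 97.5 and 102.6 CPM (0.07) and *PSMA2* with 204 and 212 CPM (0.06). *PSMA1*, at 138.4 and 139.2 CPM, could not be told from no difference within counting error (0.0086, interval -0.015 to 0.032). Genes whose products occupy the same ring in equal number thus differed in the sign of their ratios.

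The beta ring was close to level as a sum, with 1702 CPM in the control and 1725 CPM in the TGF-β1 library (log2 ratio 0.02, interval 0.01 to 0.03). This sign turned to -0.0206 when mitochondrial and ribosomal protein genes, which took 18.4% of control and 16.1% of TGF-β1 UMIs, were left out of the total. The sum covered opposed differences of single genes. Of the structural beta subunits, which have no proteolytic site, *PSMB1* had 275.8 CPM in the control and 329.5 CPM in the TGF-β1 library (log2 ratio 0.26, interval 0.24 to 0.27). *PSMB3* likewise was higher, with 109.8 and 124.2 CPM (0.18). *PSMB2* had the lowest ratio of the ring, with 314 and 267.9 CPM (-0.23, interval -0.25 to -0.21), and *PSMB4* had 239.4 and 210.4 CPM (-0.19).

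The 3 constitutive catalytic subunits differed in direction as well. *PSMB6*, which carries the caspase-like activity, had 52761 UMIs or 250.6 CPM in the control and 66928 UMIs or 304.6 CPM in the TGF-β1 library. Its log2 ratio of 0.28 (0.26 to 0.30) was the highest of the beta ring. *PSMB5*, which carries the chymotrypsin-like activity and is the main target of proteasome inhibitors, had 70567 UMIs or 335.2 CPM and 68055 UMIs or 309.7 CPM (log2 ratio -0.11, interval -0.13 to -0.10). *PSMB7*, which carries the trypsin-like activity, had 37369 UMIs or 177.5 CPM and 39187 UMIs or 178.3 CPM (log2 ratio 0.0066, interval -0.014 to 0.027). The 3 genes together had 763.4 CPM in the control and 792.7 CPM in the TGF-β1 library (0.05, interval 0.04 to 0.06). This sum was not above 0 beyond counting error in cells of 35000 to 50000 UMIs (-0.00082, interval -0.017 to 0.016) or of 50000 to 75000 UMIs (0.01, interval -0.0035 to 0.03). After thinning, *PSMB5* was detected in 99.7% of cells in the control and 99.6% with TGF-β1, *PSMB6* in 98.9% and 99.6%, and *PSMB7* in 96.9% of both. No cell type that lacks these genes was present, so the share of such detections that free RNA gives was not measured.

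The ATPases of the 19S particle, which unfold the substrate and thread it into the core, were the most even subcomplex. The 6 genes summed to 689.9 CPM in the control and 718.6 CPM in the TGF-β1 library (log2 ratio 0.06, interval 0.05 to 0.07), and the log2 ratio was 0.0194 when mitochondrial and ribosomal protein genes were left out of the total. *PSMC4* had the highest ratio, with 83.6 and 91.9 CPM (0.14, interval 0.11 to 0.17), followed by *PSMC3* with 124.3 and 135.4 CPM (0.12) and *PSMC5* with 154.6 and 166 CPM (0.10). *PSMC2* was the only member of the ring with a lower value in the TGF-β1 library, at 113.8 and 108 CPM (-0.07, interval -0.10 to -0.05). *PSMC6* (97.8 and 99.3 CPM, 0.02) and *PSMC1* (115.9 and 118 CPM, 0.03, interval 0.0011 to 0.05) differed by little. With that total their signs turned, to -0.013 for *PSMC1* and -0.02 for *PSMC6*. All 6 ratios lay within a narrower range than those of the alpha or the beta ring.

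The non-ATPase subunits of the 19S particle had a higher sum with TGF-β1, and 9 of 11 genes were above 0, against 51.4% of all genes. Their sum was 1371 CPM in the control and 1499 CPM in the TGF-β1 library (log2 ratio 0.13, interval 0.12 to 0.14). *PSMD7*, a subunit of the lid that pairs with the deubiquitinase *PSMD14*, had the highest ratio of the 40 members at or above 10 CPM. It had 40183 UMIs or 190.9 CPM in the control and 61293 UMIs or 278.9 CPM in the TGF-β1 library (log2 ratio 0.55, interval 0.53 to 0.57) or 1.46-fold, and was detected in 97.4% and 99.0% of thinned cells. Without *PSMD7* the other 10 genes summed to 1180 and 1220 CPM (log2 ratio 0.05, interval 0.04 to 0.06).

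*PSMD14*, the metalloprotease that cuts ubiquitin chains off the substrate, had the lowest ratio of the non-ATPase subunits although its protein forms a dimer with that of *PSMD7*. It had 236.4 CPM in the control and 215.9 CPM in the TGF-β1 library (log2 ratio -0.13, interval -0.15 to -0.11). *PSMD6*, a scaffold subunit of the lid, was the other lower gene, at 65.3 and 61.6 CPM (-0.08). The remaining lid genes were higher in the TGF-β1 library, namely *PSMD11* (51.2 and 58.2 CPM, 0.18), *PSMD3* (40.6 and 45.2 CPM, 0.15), *PSMD13* (171.3 and 186.5 CPM, 0.12), *PSMD8* (277 and 293.8 CPM, 0.08) and *PSMD12* (74.7 and 78.8 CPM, 0.08). The same held for the ubiquitin receptor *PSMD4* (66.8 and 73.5 CPM, 0.14) and for the large scaffold subunits *PSMD2* (80.1 and 85.8 CPM, 0.10) and *PSMD1* (116.9 and 120.8 CPM, 0.05). With *PSMD7* set aside, the lid and base genes that were higher lay within a log2 ratio of 0.05 to 0.18. With mitochondrial and ribosomal protein genes left out of the total, these genes lay between 0.0078 (*PSMD1*) and 0.14 (*PSMD11*).

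**Figure D2:**
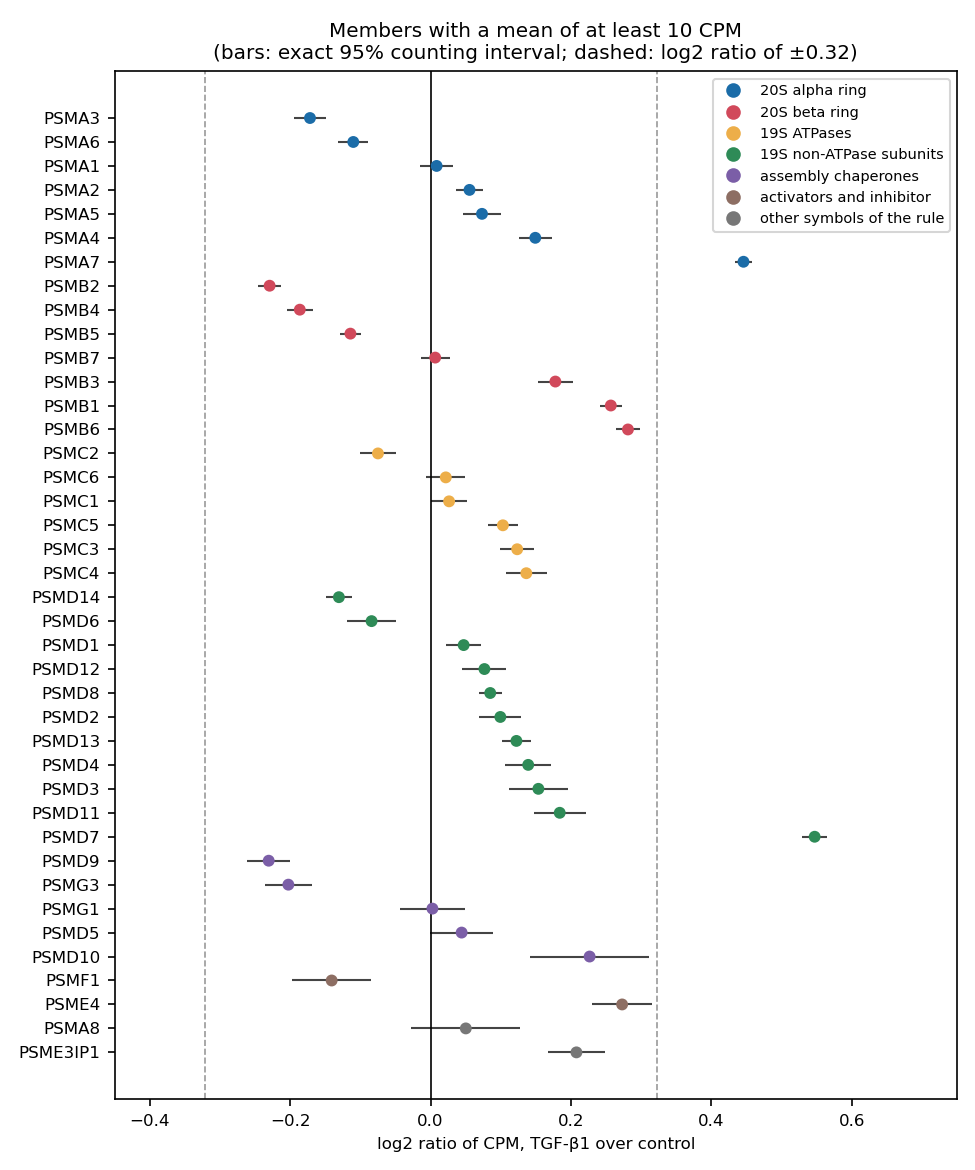
Log2 ratio of CPM, TGF-β1 over control, for the 40 members at or above 10 CPM, grouped and coloured by subcomplex and ordered by ratio within each; bars are exact 95% counting intervals and dashed lines mark a log2 ratio of 0.32 in either direction. *PSMA7* (0.45) and *PSMD7* (0.55) lie to the right of the dashed line, all others lie between the lines, and the beta ring spreads from -0.23 to 0.28.

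The plot of ratios shows that the subcomplexes did not form blocks of 1 direction. The alpha ring, the beta ring, the ATPases, the non-ATPase subunits and the chaperones each held genes whose intervals lay entirely above and entirely below 0. The same held for the activator and the inhibitor.

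Assembly chaperones were the only subcomplex with a lower sum in the TGF-β1 library. They summed to 238.2 CPM in the control and 219.1 CPM in the TGF-β1 library (log2 ratio -0.12, interval -0.14 to -0.10). The sum holds only the chaperones taken by the symbol rule and is not that of all assembly factors. *POMP*, the maturation factor of the core, lies outside the rule and was higher, with 228.9 and 248.9 CPM (0.12). The sum reflected its more abundantly counted genes, since 3 of the 5 had ratios above 0 and the median was 0.0026. *PSMD9*, a chaperone of the ATPase ring, had the lowest ratio of the 40 members, at 86.2 CPM in the control and 73.5 CPM in the TGF-β1 library (-0.23, interval -0.26 to -0.20). After thinning it was detected in 81.4% of cells in the control and 75.6% with TGF-β1. *PSMG3*, which helps to build the alpha ring, was also lower, with 69.9 and 60.8 CPM (-0.20, interval -0.24 to -0.17). *PSMD10*, another ATPase ring chaperone known as gankyrin, was higher, with 9.68 and 11.3 CPM (0.23, interval 0.14 to 0.31), and was detected in 17.1% and 20.1% of thinned cells. *PSMG1*, an alpha ring chaperone with 35.4 and 35.5 CPM (0.0026), and *PSMD5*, an ATPase ring chaperone with 36.9 and 38.1 CPM (0.04), had intervals that held 0.

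The alternative activator and the inhibitor of the core differed in opposite directions. *PSME4*, a nuclear activator that caps the core in place of the 19S particle and acts on acetylated histones, had 37.5 CPM in the control and 45.4 CPM in the TGF-β1 library (log2 ratio 0.27, interval 0.23 to 0.32). *PSMF1*, first described as a proteasome inhibitor, had 25.2 and 22.9 CPM (-0.14, interval -0.20 to -0.085).

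The symbol rule also took 4 genes that are not subunits of the constitutive proteasome of somatic cells. *PSMA8*, which takes the place of *PSMA7* in the testis, had 12.3 CPM in the control and 12.8 CPM in the TGF-β1 library (log2 ratio 0.05, interval -0.03 to 0.13), and was detected in about 20% of thinned cells in both. *PSMB11*, the catalytic subunit of the thymic proteasome, had 59 and 89 UMIs, or 0.280 and 0.405 CPM, and the interval of its log2 ratio of 0.53 was wide (0.04 to 1.03). *PSMC3IP*, a cofactor of meiotic recombination and not a proteasome subunit, had 379 and 370 UMIs (-0.10, interval -0.31 to 0.11). *PSME3IP1*, whose product binds the nuclear activator subunit encoded by *PSME3*, had 43.6 and 50.4 CPM (0.21, interval 0.17 to 0.25). These 4 genes together contributed 58.0 of 5465 CPM in the control and 65.2 of 5795 CPM in the TGF-β1 library.

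The 5 inducible genes outside the rule were all lower in the TGF-β1 library, each by a larger log2 difference than that of any member at or above 10 CPM. *PSMB8* had 86.8 CPM in the control and 19.4 CPM in the TGF-β1 library (log2 ratio -2.16), *PSMB9* 48.2 and 8.0 CPM (-2.59) and *PSMB10* 73.2 and 17.4 CPM (-2.07). The inducible activator subunits *PSME1* and *PSME2* had 414.3 and 224.9 CPM (-0.88) and 203.4 and 65.4 CPM (-1.64). In contrast, the constitutive partner of each inducible catalytic subunit lay between -0.11 and 0.28. The inducible member therefore took a smaller share of the UMIs of each catalytic pair in the TGF-β1 library. *PSMB9* made up 16.1% (15.8 to 16.4) of the UMIs of *PSMB9* and *PSMB6* in the control and 2.56% (2.44 to 2.68) in the TGF-β1 library. *PSMB10* made up 29.2% (28.8 to 29.6) and 8.88% (8.62 to 9.16) of its pair with *PSMB7*. *PSMB8* made up 20.6% (20.3 to 20.8) and 5.90% (5.73 to 6.07) of its pair with *PSMB5*. These shares are shares of captured 3′ UMIs and not of protein.

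**Figure D3:**
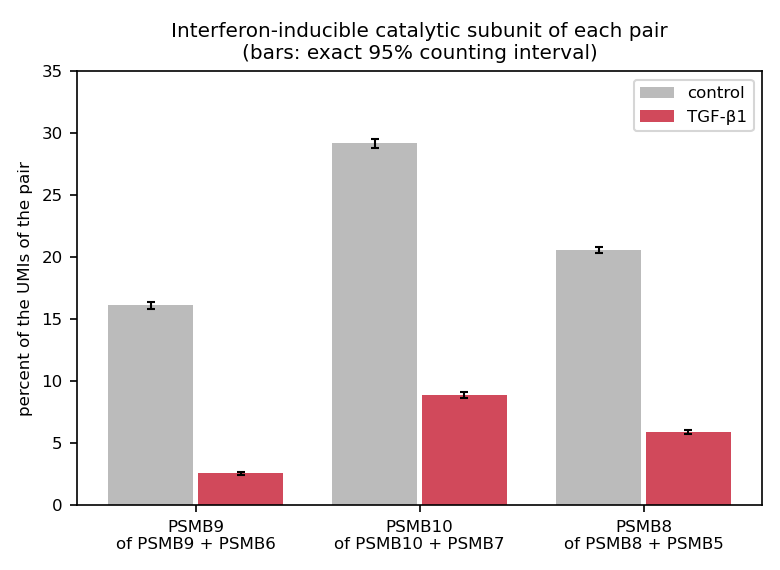
Share of the UMIs of each catalytic pair that belonged to the interferon-inducible subunit, in percent, in the control library (grey) and the TGF-β1 library (red); bars start at 0 and error bars are exact 95% counting intervals. The inducible share lies between 16.1% and 29.2% in the control and between 2.56% and 8.88% in the TGF-β1 library.

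The plot of catalytic pairs shows no overlap of the counting intervals of the libraries in any pair. Since *PSMB5* was lower, *PSMB6* higher and *PSMB7* level, the constitutive subunits had no common difference that mirrored that of their inducible partners.

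Of 31 other genes of proteasome assembly, substrate delivery and transcription, 27 were found and 24 reached the minimum of 10 CPM. With TGF-β1, 15 of the 24 were higher, against 51.4% of all genes, and 9 lower, and their median log2 ratio was 0.08. *POMP*, the maturation factor of the core, had 228.9 CPM in the control and 248.9 CPM in the TGF-β1 library (0.12), and *SEM1*, the small lid subunit outside the *PSM* nomenclature, had 341 and 362.4 CPM (0.09). The highest ratios belonged to the ubiquitin shuttle *UBQLN1* (70.9 and 95.2 CPM, 0.43), the proteasome-bound deubiquitinase *UCHL5* (39.6 and 51.4 CPM, 0.38) and the ubiquitin ligase *SYVN1* (11.4 and 13.6 CPM, 0.25). The lowest ratios belonged to 3 transcription factors, while *MAFF*, another transcription factor of the list, was higher (61.0 and 71.5 CPM, 0.23). *NFE2L2*, the regulator of the antioxidant response, had 139.1 and 101.3 CPM (-0.46), *BACH1*, a repressor at the same DNA element, had 64.4 and 52.6 CPM (-0.29), and *NFE2L1*, which raises proteasome genes when proteolysis is blocked, had 54.2 and 44.5 CPM (-0.28). By the same limit of 0.32 on the log2 scale, 2 of the 24 genes were higher and 1 was lower, against the shares of 15.7% and 15.1% of all genes given above.

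The direction of the leading differences was also read within cell clusters, which share a library and are not replicates. Clusters 0 to 7 were rebuilt from both libraries, and none of the 2000 genes used for clustering was a proteasome gene. Summed over all members, the log2 ratio was above 0 in 8 of 8 clusters, from 0.04 in cluster 6 to 0.16 in cluster 5. In cluster 3, in which *SPP1*, *KRT7* and *KRT8* led, the members summed to 5291 CPM in control and 5678 CPM in TGF-β1 cells. The sum of the alpha ring was above 0 in 8 of 8 clusters (0.09 to 0.23), as were those of the ATPases (0.02 to 0.12) and of the non-ATPase subunits (0.04 to 0.21). The sum of the chaperones taken by the rule was below 0 in all 8 (-0.17 to -0.01). The intervals of the ATPases in clusters 6 and 7 and of the chaperones in cluster 7 held 0. The beta ring was above 0 in 5 clusters and below 0 in 3 (-0.03 to 0.14).

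For single genes, 11 of 40 members were higher in TGF-β1 cells of every cluster, against 22.2% of all genes, and 8 of 40 were lower in every cluster, against 25.0% of all genes. The 11 were *PSMA2*, *PSMA7*, *PSMB1*, *PSMB6*, *PSMC4*, *PSMC5*, *PSMD2*, *PSMD4*, *PSMD7*, *PSMD8* and *PSME3IP1*. The 8 were *PSMA3*, *PSMB2*, *PSMB4*, *PSMB5*, *PSMC2*, *PSMD6*, *PSMD9* and *PSMG3*. Many of these signs lay within counting error. The interval was clear of 0 in each of the 8 clusters for *PSMA7*, *PSMB1*, *PSMB6* and *PSMD7*, which were higher, and for *PSMB2*, which was lower. The share of all genes that met this was not counted. The ratio of *PSMA7* ranged from 0.35 to 0.57 and that of *PSMD7* from 0.35 to 0.65 over the clusters. *PSMB6* ranged from 0.20 to 0.40 and *PSMB5* from -0.29 to -0.08, so that these catalytic subunits kept opposite signs in each cluster, while *PSMB7* ranged from -0.03 to 0.04. *PSMD14* was lower in 7 of 8 clusters (-0.27 to 0.17) and *PSME4* higher in 7 of 8 (-0.12 to 0.46).

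**Figure D4:**
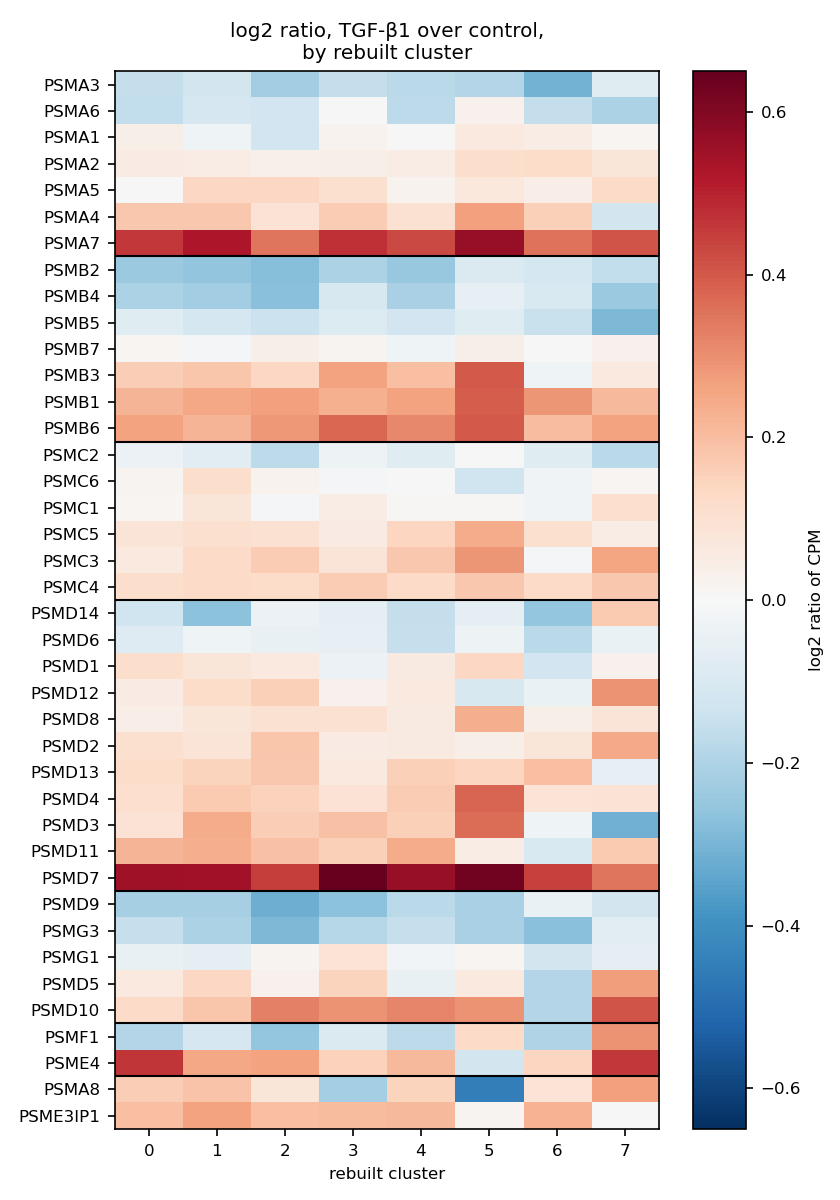
Log2 ratio of CPM, TGF-β1 over control, of the 40 members at or above 10 CPM (rows, by subcomplex) in each of the 8 rebuilt clusters (columns); red is higher and blue lower in TGF-β1 cells. *PSMA7* and *PSMD7* are red in all columns (at least 0.35), and *PSMB2*, *PSMB4* and *PSMB5* are blue in all columns.

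The plot by cluster shows that most rows kept 1 colour across the large clusters 0 to 4 and varied more in clusters 5 to 7. These last 3 clusters held between 57 and 182 cells of each library, so their counting intervals were wider.

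The level of the members also differed between clusters within a library, which is given as a description. In the control, the summed level ranged from 5146 CPM in cluster 1 to 6474 CPM in cluster 7, and in the TGF-β1 library from 5406 CPM in cluster 2 to 7163 CPM in cluster 5. Cluster 5, led by *CFD*, *CDC42EP2* and *CRABP2*, had the lowest median UMI count (42008 in control and 33694 in TGF-β1 cells). Over all control cells, the member level was 5826, 5646, 5346 and 5338 CPM in bands from 20000, 35000, 50000 and 75000 UMIs. In TGF-β1 cells it was 6288, 5808, 5536 and 5769 CPM. Whether depth contributes to the level of cluster 5 was not tested. Over the 40 members at or above 10 CPM, the level in the highest cluster was at the median 1.39-fold that in the lowest in the control and 1.52-fold in the TGF-β1 library. Of these 40 the most even gene was *PSMA3* (1.14-fold and 1.15-fold) and the least even was *PSMA8* (4.04-fold and 5.82-fold). *PSME4* had its lowest value in cluster 5 (14.7 CPM in control and 13.5 CPM in TGF-β1 cells) and its highest in cluster 2 (49.0 and 58.8 CPM). *PSMA8*, *PSMD1*, *PSMD5*, *PSMD11* and *PSMD12* were also lowest in cluster 5 in both libraries. Cluster 5 was highest in both libraries for *PSMA1*, *PSMA2*, *PSMA6*, *PSMB1*, *PSMB2*, *PSMB4*, *PSMB5*, *PSMB6*, *PSMC1*, *PSMC3*, *PSMC4*, *PSMC5*, *PSMD8*, *PSMD9* and *PSMD13*. *PSMA7* was highest in cluster 7, led by *CA4* and *GDF15*, with 759.4 CPM in control and 1009 CPM in TGF-β1 cells.

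Because the libraries differed in depth, the ratios were also computed in bands of cells with 20000, 35000, 50000 and 75000 UMIs as lower limits. The sum of all members was above 0 in 4 of 4 bands (0.04 to 0.11), as were the alpha ring (0.10 to 0.21) and the non-ATPase subunits (0.09 to 0.18). The chaperones taken by the rule were below 0 in 4 of 4 (-0.18 to -0.09), and the beta ring changed sign between bands (-0.05 to 0.06). The ATPases had 0.11 in the lowest band, 0.03 and 0.0040 in the bands from 35000 and 50000 UMIs and 0.05 in the highest, and the interval of the band from 50000 UMIs held 0 (-0.014 to 0.02). *PSMA7* ranged from 0.40 to 0.51, *PSMD7* from 0.49 to 0.64 and *PSMB6* from 0.21 to 0.34. *PSMB5* ranged from -0.17 to -0.05, and its interval held 0 in the band from 20000 UMIs (-0.098 to 0.0036).

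Within each library, cycling cells were set against all others. A cell was taken as cycling when it had at least 3 of the 11 cycling markers found after thinning, which held for 153 control cells (3.96%) and 173 TGF-β1 cells (3.83%). Of the 40 members, 24 were higher in cycling cells in both libraries, against 48.2% of all genes, and 7 were lower in both, against 26.7% of all genes. The sum of all members was 5450 CPM in other and 5766 CPM in cycling control cells (log2 ratio 0.08), and the ratio was 0.04 in the TGF-β1 library. Among the subcomplexes of the proteasome and its assembly the chaperones differed most, by 0.29 in the control and 0.23 in the TGF-β1 library, whereas the beta ring differed by -0.0026 and -0.02.

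The chaperone difference came mainly from *PSMG3* and *PSMG1*, which build the alpha ring, and from *PSMD5*. *PSMG3* had 68.4 CPM in other and 99.6 CPM in cycling control cells (0.54), and 59.7 and 81.7 CPM in the TGF-β1 library (0.45). *PSMG1* had a log2 ratio of 0.51 in the control and 0.33 in the TGF-β1 library, and *PSMD5* one of 0.43 and 0.17. *PSMD9* was lower in cycling control cells (-0.13, interval -0.24 to -0.03) and had 0.02 (interval -0.09 to 0.12) in the TGF-β1 library. *PSMD10* had 0.25 and 0.16, with intervals that held 0. Among subunits, *PSMC3* (0.30 and 0.17) and *PSMA4* (0.23 and 0.19) were higher in cycling cells and *PSMB4* was lower (-0.15 and -0.10). *PSMC3IP*, the recombination cofactor, had the largest difference of the 42 members, with 1.37 and 10.3 CPM in the control (2.91) and 1.43 and 6.64 CPM in the TGF-β1 library (2.21). Cycling cells also held more UMIs, with a median of 57682 against 50036 in the control and 52257 against 42954 in the TGF-β1 library, and the part of depth in these ratios was not tested.

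**Figure D5:**
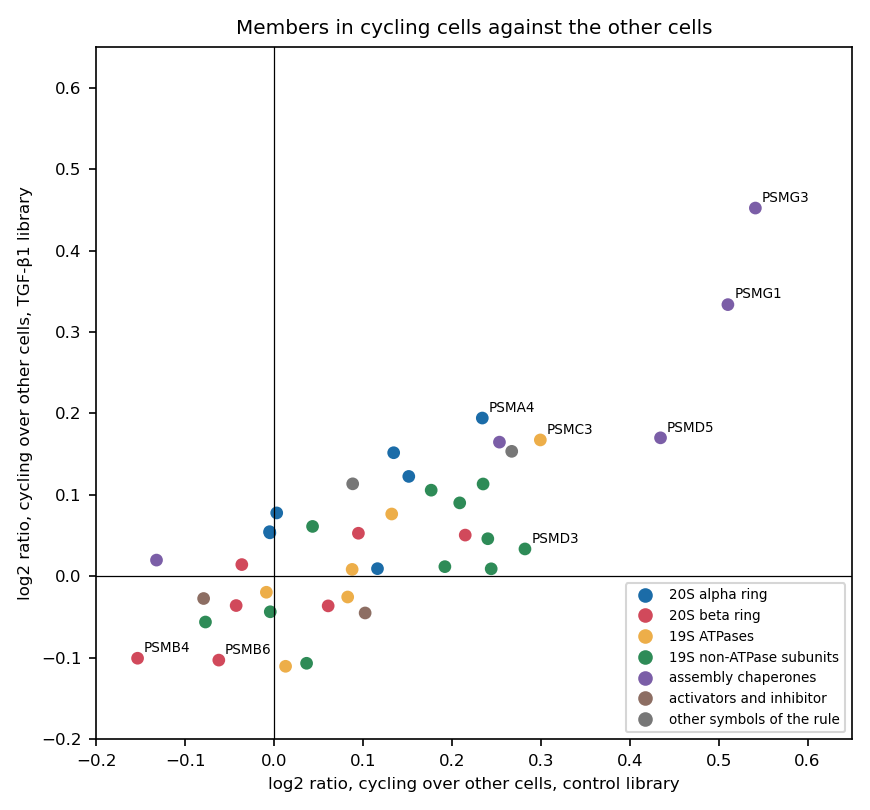
Log2 ratio of CPM in cycling cells over other cells, in the control library (horizontal) and the TGF-β1 library (vertical), for the 40 members at or above 10 CPM, coloured by subcomplex. *PSMG3* (0.54 and 0.45) and *PSMG1* (0.51 and 0.33) lie farthest to the upper right, and *PSMB4* (-0.15 and -0.10) lies at the lower left.

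The plot of cycling cells shows the alpha ring chaperones apart from the subunits they assemble, since the highest of the 7 alpha ring genes, *PSMA4*, had log2 ratios of 0.23 and 0.19.

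Detection of the members was also read cell by cell. Over the 40 members at or above 10 CPM the share of thinned cells with a UMI ranged from 17.1% (*PSMD10*) to 99.97% (*PSMA7*) in the control and from 20.1% to 100% with TGF-β1. Its median was 89.0% in both, while single genes differed in both directions. *PSMG3* was detected in 73.8% of cells in the control and 68.8% with TGF-β1, whereas *PSME4* was detected in 47.9% and 54.1%. The rarely counted *PSMC3IP* was detected in 3.16% and 2.95% and *PSMB11* in 0.44% and 0.69%.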

How the data were processed

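Single cell RNA sequencing (10x Genomics 3′ v3.1) of 1 control and 1 TGF-β1 library, each pooled from 4 mares, was analysed. Cells given MFGE8 were not analysed here. The deposited values are UMI counts per gene and barcode. For these the authors aligned reads to EquCab3.0 with Ensembl gene models in Cell Ranger, whose version is 7.1.0 in the methods but 8.0.1 in the headers. The deposited barcodes were 4384 control and 5124 TGF-β1 barcodes with 214282770 and 224189951 UMIs. The study's cell filters (at least 20000 UMIs, at least 3500 genes, under 4% mitochondrial UMIs) kept 88.2% and 88.1% of them, with 210497250 and 219731144 UMIs. The study called doublets and mares with Souporcell on the reads, and this was not repeated, so doublets were not removed.

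Counts were summed per library and scaled to CPM in Python 3.11.15 (pandas 2.3.3, numpy 2.4.6 and scipy 1.17.1). Ratios are log2 of the TGF-β1 level over that of the control with no pseudocount, and none is given at 3 or fewer UMIs in both libraries. A mean of 10 CPM was the minimum for counts of members. Intervals are exact binomial 95% intervals for counting error only. With 1 library per group there was no test and hence no p-value. At this depth the intervals of abundant genes are narrow, and they say nothing of the spread between mares. The ratio script was tested on simulated data. Cells were thinned to 20000 UMIs for shares of cells. Clusters were rebuilt in Seurat 5.3.0 in R 4.3.3 (2000 variable genes with proteasome genes left out, 30 dimensions, canonical correlation integration, resolution 0.5) and differ from those of the study. Figures were drawn in matplotlib 3.10.9.

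The members and lists were chosen with earlier results of these data known. The text names the catalytic subunits, the highest and lowest ratio of each subcomplex, every member past a log2 ratio of 0.32 (25% higher) or under the minimum, further members by their ratio, and from the pathway list *POMP*, *SEM1*, *NFE2L1*, *NFE2L2* and the 3 highest and 3 lowest ratios. This limit was set because the members are housekeeping genes. Genes leading a cluster, single cell type markers and *MAFF* were named after their values were seen. No sequence or coordinate was used here. Alternatives were all deposited barcodes, the mean of per-cell CPM, a median-of-ratios size factor, removal of cells above the 98th percentile of UMIs, removal of cycling cells, equal cluster shares and other CPM minimums.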

Additional observations from a re-analysis of the deposited data

How the results depend on the processing

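No paired analysis was possible because the study's assignment of cells to mares, which rests on the reads, was not repeated here, so that each group was 1 library. For the same reason no replicate was left out. With all deposited barcodes, with cycling cells removed and with equal shares of the rebuilt clusters, the summed log2 ratios and the median stayed within their counting intervals or spread. A median-of-ratios size factor gave 0.0763 for all members, 0.152 for the alpha ring, 0.0104 for the beta ring and 0.120 for the non-ATPase subunits. The mean of per-cell CPM gave 0.0697 for the ATPases. Removal of cells above the 98th percentile of UMIs gave 0.0791 for all members, 0.152 for the alpha ring and 0.0114 for the beta ring.

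A pair of alternatives was chosen after seeing the data. Leaving mitochondrial and ribosomal protein genes out of the total gave 0.0452 for all members, 0.121 for the alpha ring, 0.0194 for the ATPases, 0.0893 for the non-ATPase subunits and a median of 0.0251, and it turned the beta ring to -0.0206 and *PSMC1* to -0.0129. Leaving out *PSMA7* and *PSMD7* gave 0.0241 for all members and 0.0478 for the non-ATPase subunits and turned the alpha ring to -0.00478. Of the 40 members, at most 5 changed sign under any scaling or choice of cells (*PSMA1*, *PSMB7*, *PSMC1*, *PSMC6* and *PSMG1*), and none did with cycling cells removed. With no CPM minimum, *PSMB11* was added as the third member with a log2 ratio above 0.32. With 1 library per group, the differences seen for the members, *PSMA7* and *PSMD7* included, cannot be told from differences between library preparations.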
